A study of Mus musculus with 8 samples.

Results

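BC018473, Tmem47, Chi3l1, 1700112E06Rik, Mtmr9, D14Ertd449e, Btf3l4, Txndc12 and Nav1 are 9 genes whose array signal separated wild-type from miR-223 knockout bone marrow cells. They were picked by symbol, from values of these same arrays, for a gap between WT_MIG and the knockout arrays and for little movement among the knockout arms. They hold 12 probe sets of the 28853 on the array, and 9 of the 1049 genes that the authors' deposited list names with a single symbol. The gap between genotypes was therefore a condition of the choice and is given below as a description without a test, and the same holds for the differences among knockout arms.

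The series has 8 arrays in 4 groups of 2, with 6 arrays labelled miR-223 knockout and 2 labelled wild type. KO_MIG, KO_223mut and KO_starmut are marrow cells of C57/BL6 mice with the genotype mir-223-/-, and WT_MIG are wild-type marrow cells of the same strain. The cells of all 4 groups, WT_MIG included, carry retroviral Hoxa9 and Meis1, transcription factors that together drive leukaemia, on MSCV vectors. They were stimulated for 2 days, co-cultured with virus producer cells irradiated at 4000 cGy, sorted for YFP and kept in neomycin at 1.4 mg/ml, so these are selected cultures and not fresh marrow. What MIG stands for and which bases the mutant vectors change are left unstated in the labels. The deposited gene list writes KO_starmut as KO_223*mut, where the star is the older sign for the passenger strand of a microRNA hairpin. The series speaks of biological replicates without naming separate mice or cultures, so any error given measures the spread between these arrays only, and the number of arrays limits the precision. Neither the age of the mice nor the number behind each culture is stated.

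A microRNA pairs with messenger RNAs through its seed, the bases near its front end, and lowers their level or translation. The miR-223 hairpin is known for its high level in granulocytes and monocytes, and its guide strand for restraining neutrophil maturation and activation. Both mature strands are shown because the knockout concerns their hairpin and the mutant vectors are named after it. They come from RefSeq (GRCm38.p6), from chrX:96242884-96242905 and chrX:96242842-96242864 on the plus strand, and the capitals mark the seed, bases 2 to 8.
mmu-miR-223-3p: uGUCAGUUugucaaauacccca
mmu-miR-223-5p: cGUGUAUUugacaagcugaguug
The seeds GUCAGUU and GUGUAUU differ, so a messenger that pairs with the guide seed need not pair with the passenger seed. Transcript sequences were not used here, and no target site was looked for in the 9 genes.

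Values are on the log2 scale and centred, so that 0 is the median of a probe set across the arrays. A centred value holds no level, and no gene can be called more or less abundant than another from them. Because 6 of 8 arrays are knockout arrays, the median lies among them, and their values stand near 0 by construction while WT_MIG shows the distance. The mean of the 3 knockout arms against WT_MIG was called by limma (adjusted p threshold 0.05) in all 12, with 6 higher and 6 lower in the knockout, where 0.915% of all probe sets were called, 0.308% higher and 0.607% lower. In KO_MIG against WT_MIG all 12 passed as well, 6 in each direction, beside 0.135% of all probe sets, 0.052% higher and 0.0832% lower. That comparison rests on 2 arrays a group: without either KO_MIG array, or without WT_MIG replicate 3, 4 of the 12 passed, and with only the groups compared in the fit 5 passed. The genes were chosen on these contrasts, so neither count adds to the choice. The median absolute difference of the 12 probe sets was 0.96 (log2), against 0.06 over all 28853, which follows from the choice too. In bulk cells of this kind, fewer cells of a type and less RNA per cell cannot be told apart.

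**Figure D1:**
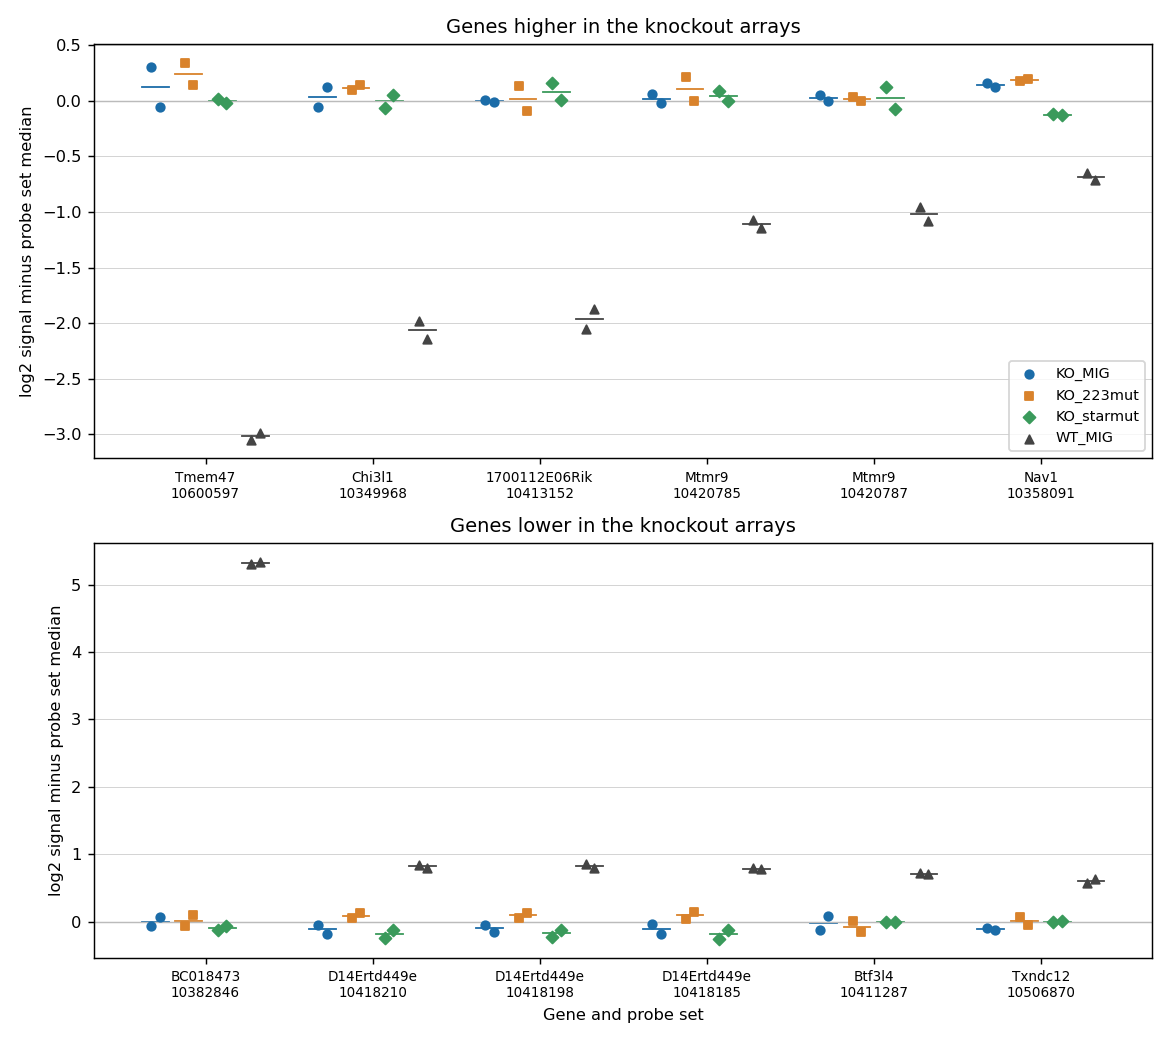
Signal of the 12 probe sets on each of the 8 arrays (log2, centred on the median of the arrays); each point is an array, each bar a group mean of 2 arrays, and the upper and lower panels have different axes. Knockout arrays lie between -0.26 and 0.34 in every probe set, while WT_MIG ranges from -3.05 in Tmem47 to 5.34 in BC018473.

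BC018473 is a long non-coding RNA gene on chromosome 11 by its RefSeq biotype, and no function is stated for it in that table. Its probe set read -0.06 and 0.06 in KO_MIG, -0.07 and 0.10 in KO_223mut and -0.13 and -0.07 in KO_starmut, against 5.31 and 5.34 in WT_MIG. It was high in both wild-type arrays and low in all 6 knockout arrays, with no overlap. The knockout arrays were 40.9-fold below WT_MIG (log2 difference -5.35 ± 0.07, SE, 6 arrays against 2). Of all 28853 probe sets, this one had the largest absolute difference. The wild-type arrays differed from each other with an SD of 0.02, less than the SD of 0.09 over the knockout arrays.

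Tmem47, Chi3l1 and 1700112E06Rik had the opposite sign, with higher signal in the knockout. Tmem47 encodes a small membrane protein related to claudins, found at cell junctions, and lies on chromosome X. It read 0.31 and -0.05 in KO_MIG, 0.34 and 0.14 in KO_223mut and 0.02 and -0.02 in KO_starmut, against -3.05 and -2.99 in WT_MIG. The 6 knockout arrays thus lay 8.81-fold above the wild-type arrays (3.14 ± 0.10, SE), and their SD of 0.17 was the widest of the 12 probe sets. The miR-223 gene lies on the same chromosome, with 182 genes of the RefSeq table between it and Tmem47.

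Chi3l1, now Chil1, encodes a secreted protein of the chitinase family that binds chitin without cleaving it and is made by macrophages and neutrophils. Its values were -0.06 and 0.13 in KO_MIG, 0.09 and 0.14 in KO_223mut and -0.07 and 0.06 in KO_starmut, against -1.98 and -2.14 in WT_MIG. All knockout arrays lay far above both wild-type arrays, at a difference of 2.11 ± 0.08 (SE), or 4.32-fold. 1700112E06Rik, now Lrmda, is named for a leucine-rich protein of melanocyte differentiation. It read 0.01 and -0.01 in KO_MIG, 0.13 and -0.09 in KO_223mut and 0.16 and 0.01 in KO_starmut, against -2.05 and -1.87 in WT_MIG. The difference was 2.00 ± 0.08 (SE), or 3.99-fold higher in the knockout arrays. By absolute difference, BC018473, Tmem47, Chi3l1 and 1700112E06Rik held ranks 1, 2, 4 and 5 of 28853. The probe set at rank 3 has no place among the 9 genes.

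Mtmr9 and Nav1 were higher in the knockout by a smaller amount. Mtmr9 belongs to the myotubularins, phosphatases of phosphoinositide lipids, but lacks catalytic activity and binds active family members. On probe set 10420785 it read 0.06 and -0.02 in KO_MIG, 0.21 and 0.00 in KO_223mut and 0.09 and 0.00 in KO_starmut, against -1.07 and -1.14 in WT_MIG. Probe set 10420787 read 0.05 and 0.00 in KO_MIG, 0.04 and 0.00 in KO_223mut and 0.13 and -0.07 in KO_starmut, against -0.95 and -1.08 in WT_MIG. Knockout and wild-type arrays were apart on both probe sets, by 1.16 ± 0.07 and 1.04 ± 0.07 (SE). On a single array the readings of the 2 probe sets differed by at most 0.175, in KO_223mut replicate 2, and by a median of 0.05.

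Nav1, neuron navigator 1, encodes a protein that binds microtubule ends and is best known from the nervous system. It read 0.16 and 0.12 in KO_MIG, 0.18 and 0.20 in KO_223mut and -0.12 and -0.13 in KO_starmut, against -0.65 and -0.72 in WT_MIG. The knockout arrays lay above WT_MIG by 0.75 ± 0.05 (SE), or 1.68-fold. Here the knockout arrays formed 2 levels, with both KO_starmut arrays below the other 4.

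D14Ertd449e, Btf3l4 and Txndc12 were lower in the knockout. D14Ertd449e, now Tmem254a, encodes a predicted transmembrane protein and has 3 probe sets. On probe set 10418198 it read -0.05 and -0.16 in KO_MIG, 0.05 and 0.13 in KO_223mut and -0.23 and -0.13 in KO_starmut, against 0.85 and 0.80 in WT_MIG. No knockout array reached the wild-type arrays, and the difference was -0.89 ± 0.06 (SE), or 1.85-fold lower. Probe set 10418210 gave -0.89 ± 0.06 and probe set 10418185 gave -0.86 ± 0.07 (SE). The 3 probe sets never differed by more than 0.0561 on an array, with a median spread of 0.02. For 24 other listed genes with several probe sets the median spread per gene ranged from 0.000182 to 0.21, with a middle value of 0.03.

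The close readings of D14Ertd449e are within the spread of the other listed genes and do not show what the 3 probe sets measure. The RefSeq table holds 3 copies of this gene on chromosome 14, named Tmem254a, Tmem254b and Tmem254c. Tmem254c lies 6 gene positions from Tmem254a, and Tmem254b lies 12. The authors' list gives all 3 probe sets the same symbol, and signal from the copies cannot be told apart here. Transcript and probe sequences were not compared. The 300 bases around a start of Tmem254a (250 before to 50 after) are printed to show how alike the copies are there. They are from RefSeq, GRCm38.p6, chr14:25927623-25927922 on the minus strand. Capitals mark a run of 284 bases found unchanged in a window of Tmem254b, while a Tmem254c window has all 300 bases the same.
Tmem254a: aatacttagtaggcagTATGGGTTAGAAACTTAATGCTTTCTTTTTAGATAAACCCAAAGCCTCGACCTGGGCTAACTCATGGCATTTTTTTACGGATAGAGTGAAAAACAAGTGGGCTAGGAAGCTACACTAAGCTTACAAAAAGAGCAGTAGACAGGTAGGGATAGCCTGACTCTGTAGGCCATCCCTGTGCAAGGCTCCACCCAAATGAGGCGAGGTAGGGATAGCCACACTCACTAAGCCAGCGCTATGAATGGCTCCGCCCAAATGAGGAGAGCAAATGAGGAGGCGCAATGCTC
The 3 probe sets are accordingly 1 gene and not independent readings. Counts and medians over the 12 probe sets hold this gene 3 times.

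Btf3l4 encodes a relative of the basal transcription factor Btf3, which is also a subunit of the nascent polypeptide-associated complex at the ribosome. It read -0.13 and 0.09 in KO_MIG, 0.01 and -0.16 in KO_223mut and -0.01 and -0.01 in KO_starmut, against 0.72 and 0.70 in WT_MIG. Knockout arrays were lower by 0.75 on the log2 scale (difference -0.75 ± 0.08, SE, 1.68-fold). Txndc12 encodes a thioredoxin-fold protein of the endoplasmic reticulum that handles disulfide bonds. It read -0.09 and -0.12 in KO_MIG, 0.07 and -0.06 in KO_223mut and -0.01 and 0.01 in KO_starmut, against 0.58 and 0.64 in WT_MIG. The difference was -0.64 ± 0.06 (SE), or 1.56-fold lower. Neither gene had a knockout array near the wild-type level. Without WT_MIG replicate 2, Btf3l4 lost its call in the comparison of all knockout arms with WT_MIG. Without WT_MIG replicate 3 Btf3l4 and Txndc12 both lost it.

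**Figure D2:**
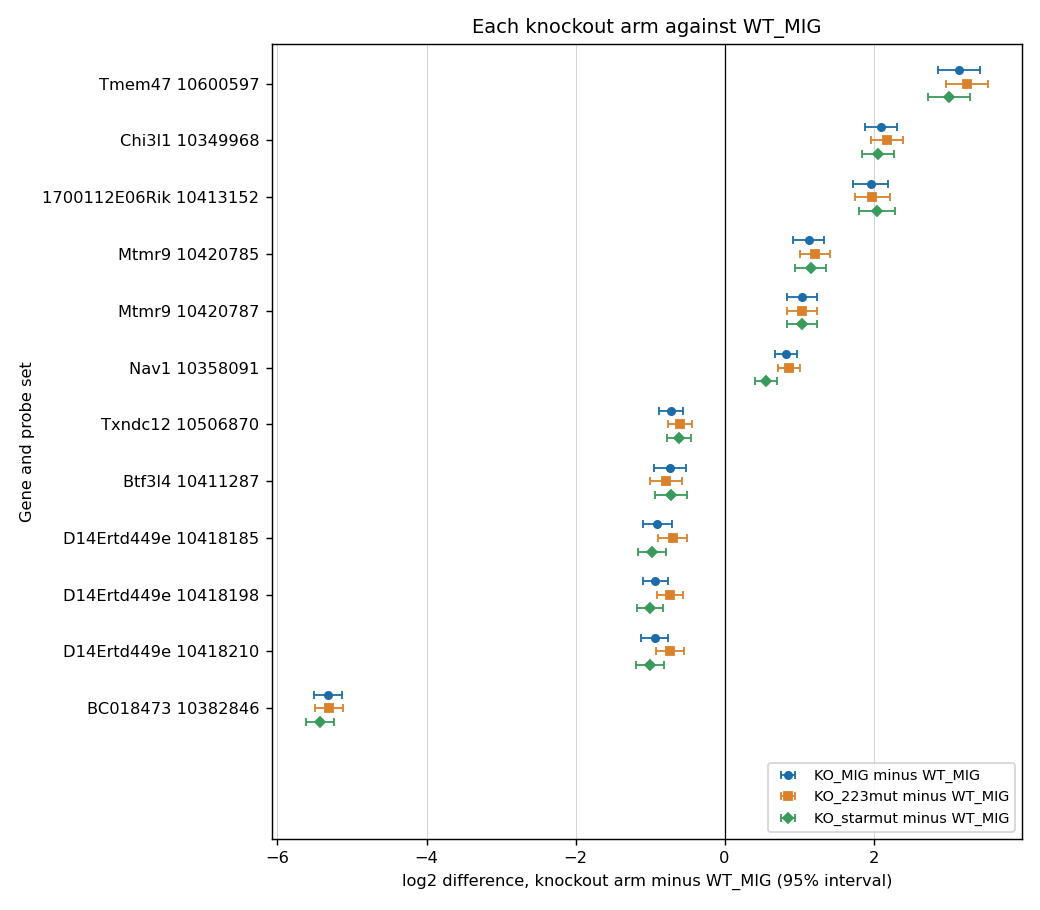
Log2 difference of each knockout arm from WT_MIG for the 12 probe sets, with 95% intervals from limma (2 arrays per group); the comparisons share the WT_MIG arrays. Differences of the arms stand close together in each row, and Nav1 has its smallest value in KO_starmut (0.56) and D14Ertd449e its smallest in KO_223mut (-0.70 to -0.73).

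The width of the gap was set against the scatter of the knockout arrays, a ratio the choice of genes favoured. The gap is the distance from the nearer wild-type array to the nearest knockout array, and the scatter is the range over the 6 knockout arrays. For BC018473 the gap was 22.8 times the range, for Chi3l1 9.26 times, for Tmem47 7.45 times and for 1700112E06Rik 7.17 times, the 4 highest ratios of all 28853 probe sets. Mtmr9 followed at ranks 10 and 11, both at 4.50 times. Txndc12 (2.65) and Btf3l4 (2.46) stood at ranks 24 and 27. D14Ertd449e had 1.60 to 1.85 and Nav1 1.61, the lowest ratios among the 12 probe sets. Over the whole array 240 probe sets (0.832%) had a gap wider than the range, as did all 12 described here. Probe sets without overlap of knockout and wild-type arrays, whatever the gap, made up 10.8%.

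Among the knockout arms no probe set passed in limma in any of the 3 comparisons (0 of 28853, 0%), at unadjusted p-values under 0.05 in 1171 probe sets for KO_223mut against KO_MIG, 1213 for KO_starmut against KO_MIG and 1358 for KO_starmut against KO_223mut. The 9 genes had been described as unchanged by either vector. A p that misses the threshold does not show equal values, so the differences are given with unadjusted intervals, as a description. The comparisons share arrays, and their values for the 9 genes are given side by side.

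Nav1 differed by -0.26 between KO_starmut and KO_MIG (95% interval -0.41 to -0.12) and by -0.31 between KO_starmut and KO_223mut (-0.46 to -0.16). Between KO_223mut and KO_MIG it differed by 0.05 (-0.10 to 0.19). Its KO_starmut arrays at -0.12 and -0.13 overlapped neither of the other arms, and still lay above WT_MIG. Without 1 array the KO_starmut minus KO_MIG value ranged from -0.28 to -0.24. These are values that the choice of genes used, and none passed the threshold over all probe sets.

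D14Ertd449e stood apart in KO_223mut. Its difference from KO_MIG was 0.19 on probe set 10418198 (95% interval 0.02 to 0.37), and 0.21 and 0.20 on the others. Without 1 array these values ranged from 0.14 to 0.25 on probe set 10418198, from 0.13 to 0.28 on 10418185 and from 0.14 to 0.27 on 10418210. KO_starmut minus KO_223mut gave -0.27 on the same probe set (-0.44 to -0.09), and KO_starmut minus KO_MIG -0.07 (-0.25 to 0.10). Both KO_223mut arrays were thus the knockout arrays nearest to the wild-type level on each of the 3 probe sets. The interval left out 0 in 3 of 12 probe sets for KO_223mut against KO_MIG, all of D14Ertd449e, where 4.06% of all probe sets did so. It left out 0 in 1 of 12, that of Nav1, for KO_starmut against KO_MIG (4.2% of all), and in 4 of 12, of Nav1 and D14Ertd449e, for KO_starmut against KO_223mut (4.71% of all). Counted by gene these are 1, 1 and 2 of 9, and nothing is read from so few.

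The remaining 7 genes had intervals that held 0 in each comparison among knockout arms. For BC018473 the largest of the 3 differences was -0.11, in KO_starmut against KO_223mut (95% interval -0.31 to 0.08), beside -5.35 between all knockout arms and WT_MIG. Tmem47 gave -0.24 in that comparison (-0.52 to 0.04), the widest value of the 7, and -0.34 to -0.14 without 1 array. Without 1 array its KO_starmut minus KO_MIG value ran from -0.31 to 0.05, and its KO_223mut minus KO_MIG value from -0.07 to 0.29. For Chi3l1 KO_starmut against KO_223mut gave -0.12 (-0.34 to 0.09). For 1700112E06Rik the largest difference was 0.08 in KO_starmut against KO_MIG (-0.15 to 0.32). Mtmr9 moved by at most 0.09 on either probe set, with intervals within -0.27 and 0.29. Txndc12 gave 0.11 in KO_223mut (-0.05 to 0.28) and 0.11 in KO_starmut (-0.05 to 0.27), each against KO_MIG, and Btf3l4 lay within -0.27 and 0.28. The widest bounds among the 7 genes were those of Tmem47, from -0.52 in KO_starmut against KO_223mut to 0.40 in KO_223mut against KO_MIG, and changes inside such bounds cannot be told from none at 2 arrays per group. The arrays of the compared arms did not overlap in 5 of 12 probe sets for KO_223mut against KO_MIG (28.6% of all probe sets), in 4 for KO_starmut against KO_MIG (30.6%) and in 7 for KO_starmut against KO_223mut (32.1%). The median absolute difference of the 12 probe sets was 0.08 for KO_223mut and 0.07 for KO_starmut against KO_MIG, while over all probe sets it was 0.06 in both comparisons. For KO_starmut against KO_223mut it was larger, at 0.12, beside 0.06 over all probe sets.

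**Figure D3:**
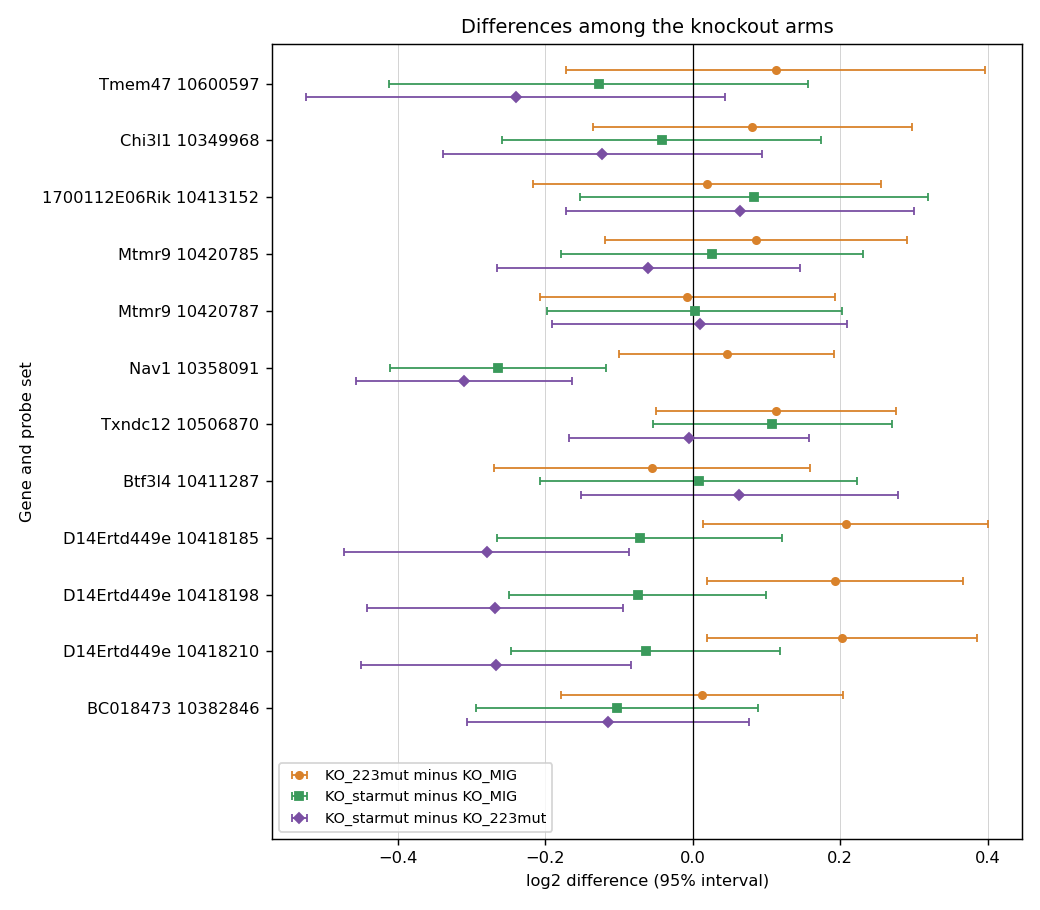
Log2 differences among the knockout arms for the 12 probe sets with 95% intervals (limma, 2 arrays per group); the comparisons share arrays. Intervals of Nav1 leave out 0 where KO_starmut is compared, those of the 3 D14Ertd449e probe sets where KO_223mut is compared, and all others hold 0.

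The position of the genes was not part of the choice. By the RefSeq table, whose build differs from the mm9 annotation of the array and which is used here for gene order only, 3 of the 9 genes lie on chromosome 14, 2 on chromosome 1, 2 on chromosome 4 and 1 each on chromosomes 11 and X. Of the listed genes found in that table, 4.55% lie on chromosome 14, 6.82% on chromosome 1 and 6.62% on chromosome 4. Chromosomes 11 and X hold 8.5% and 3.36%. Among those called in all knockout arms against WT_MIG, which include the 9 genes, chromosome 4 holds 8.51%. Chromosomes 1, 11, 14 and X hold 6.38% each. On chromosome 1, 43 genes separate Chi3l1 and Nav1, 1 of them listed. On chromosome 14, 61 genes separate 1700112E06Rik and D14Ertd449e, and 1146 separate D14Ertd449e and Mtmr9.

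Btf3l4 and Txndc12 are direct neighbours on chromosome 4 and are transcribed away from each other. The annotated starts lie 376 bases apart, and the windows of 250 bases before to 50 after each start share 125 bases. The probe sets of both symbols read lower in the knockout, but no probe positions place that of Btf3l4 at this locus. A link between the shared bases and these values was not tested. The Txndc12 window is printed only to show the overlap. It is from RefSeq, GRCm38.p6, chr4:108834428-108834727 on the plus strand, with the bases shared with the Btf3l4 window in capitals.
Txndc12: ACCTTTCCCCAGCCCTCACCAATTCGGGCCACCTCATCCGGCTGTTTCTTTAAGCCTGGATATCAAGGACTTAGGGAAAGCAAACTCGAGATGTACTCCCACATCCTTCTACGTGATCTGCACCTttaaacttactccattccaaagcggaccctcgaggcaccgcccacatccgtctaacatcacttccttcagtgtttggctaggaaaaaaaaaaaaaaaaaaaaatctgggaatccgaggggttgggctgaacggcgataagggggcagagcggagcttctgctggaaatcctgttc
The shared bases hold 51.2% G and C. Overlapping windows of genes that point apart were found for 10.9% of 27025 genes with a window, and for Chi3l1, Btf3l4 and Txndc12 among 7 of the 9 genes with one.

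Whether the Btf3l4 probe set reads the chromosome 4 gene was not settled by the files, which give no probe positions. The listed probe sets were put in the order of their ID numbers. For Txndc12 the 6 listed genes nearest in that order, leaving out the 9 genes, all lie on chromosome 4, and for the other genes 5 or 6 of 6 lie on the chromosome of the gene itself. For the Btf3l4 probe set, 10411287, 0 of 6 lie on chromosome 4 and 6 of 6 lie on chromosome 13. Its values therefore stand for the symbol in the deposited list and are not tied here to the locus beside Txndc12.

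Kti12, next to Txndc12 on the far side from Btf3l4, encodes a partner of the Elongator complex that modifies transfer RNAs. Its probe set read 0.01 and -0.15 in KO_MIG, -0.04 and 0.07 in KO_223mut and -0.07 and -0.01 in KO_starmut, against 0.44 and 0.47 in WT_MIG. Every knockout array was below both wild-type arrays, as in Txndc12, and Kti12 fell by 0.49 ± 0.06 (log2, SE, limma adjusted p = 0.0167 for all knockout arms against WT_MIG). The adjusted p ranged from 0.00953 to 0.153 over 12 alternative settings, and the call was lost without WT_MIG replicate 2, WT_MIG replicate 3 or KO_starmut replicate 2. The authors' deposited list keeps only probe sets that passed an analysis of variance on these arrays, so neighbours that did not pass it are not named here.

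The other listed genes within 10 gene positions did not pass in the same fit. Chit1, an active chitinase, lies 2 positions from Chi3l1 and gave 0.09 ± 0.07 (limma adjusted p = 0.837). Phlda3, a target of p53, lies 6 positions from Nav1 and gave -0.08 ± 0.06 (adjusted p = 0.812), with its lowest arrays in KO_MIG at -0.33 and -0.38. Dusp13, a phosphatase, lies 9 positions from 1700112E06Rik and gave -0.02 ± 0.06 (adjusted p = 0.993). 4931406H21Rik lies 9 positions from D14Ertd449e and gave -0.41 ± 0.08 (adjusted p = 0.0915), and it passed in 2 of 12 alternative settings, 1 of them the fit without KO_starmut replicate 3 (adjusted p 0.0268 to 0.558 over all 12). Its knockout arrays lay between -0.34 and 0.08, against 0.34 and 0.31 in WT_MIG, without overlap. No listed gene lay within 10 positions of BC018473, Tmem47 or Mtmr9.

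**Figure D4:**
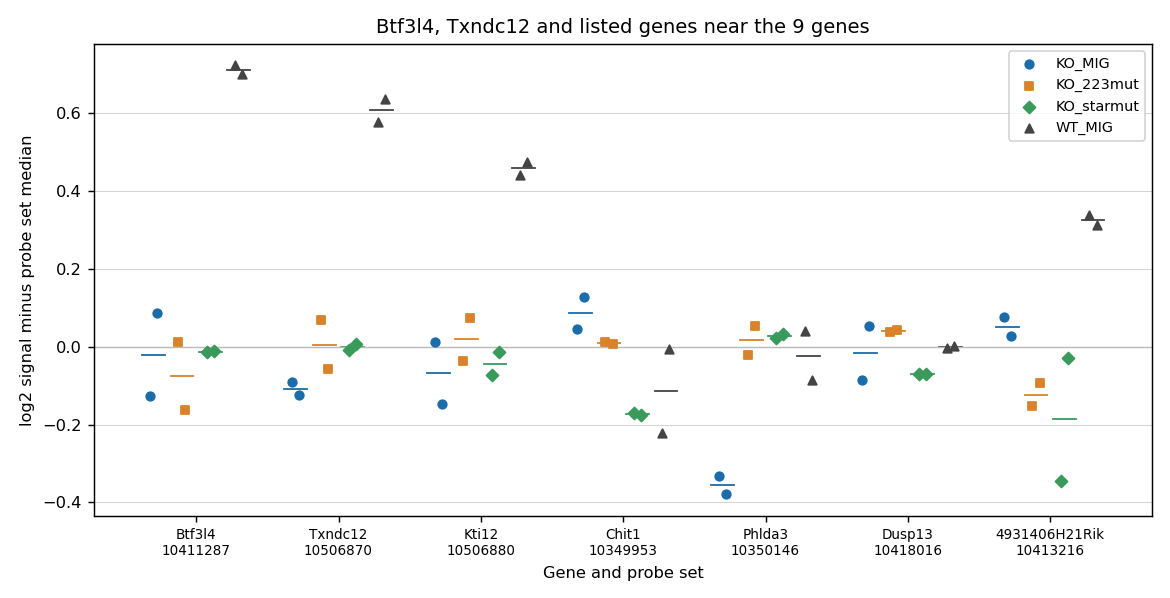
Signal on each array (log2, minus the probe set's median) for Btf3l4 and Txndc12 and for the 5 listed genes within 10 gene positions of any of the 9 genes; points are arrays and bars group means of 2. Kti12 has its WT_MIG arrays at 0.44 and 0.47 above all knockout arrays, while the wild-type arrays of Chit1, Phlda3 and Dusp13 lie within the range of the knockout arrays or overlap it.

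Family relatives of the 9 genes could be named only through the deposited list. Of 50 relatives on 6 lists it holds 3, namely Chit1 (above), the thioredoxin-related Tmx2 and the neuron navigator Nav2. Tmx2 gave 0.12 ± 0.05 (limma adjusted p = 0.546) and Nav2 -0.18 ± 0.05 (adjusted p = 0.275), so none of the 3 passed, in either direction. Nav2 read -0.27 and -0.24 in KO_starmut and 0.10 and 0.00 in KO_MIG, against 0.12 and 0.10 in WT_MIG, and like Nav1 had both KO_starmut arrays below the other knockout arrays. No myotubularin, no subunit of the nascent polypeptide complex and no claudin-like relative of Tmem47 was named.

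The genes outside the 9 with the most similar profile were ranked by Pearson correlation over the 8 arrays with the mean scaled profile of the 9, a measure that mainly reads the step between genotypes. Among those with higher signal in the knockout they were the nucleoside transporter Slc29a1 (r = -0.99), Klhl5 (-0.987), the lipase Daglb (-0.977), the lactate transporter Slc16a1 (-0.976) and Exoc3l (-0.974). Slc29a1 had knockout arrays between -0.05 and 0.11, against -0.75 and -0.77 in WT_MIG. Among those with lower signal they were the metalloproteinase inhibitor Timp2 (r = 0.974), Frmd4b (0.969), Fgd6 (0.967), Tmem171 (0.966) and the costimulatory ligand Cd80 (0.963). Frmd4b had knockout arrays between -0.23 and 0.06, against 0.91 and 0.94 in WT_MIG. The differences of these 10 genes between all knockout arms and WT_MIG ran from -0.999 in Frmd4b to 0.79 in Slc29a1. Those of Klhl5 (0.59), Timp2 (-0.51), Exoc3l (0.48), Daglb (0.40) and Slc16a1 (0.26) were smaller in size than that of any of the 9 genes. These 10 genes were picked for the step between genotypes on the same arrays, so a call adds nothing to their choice. Over all probe sets 0.915% were called. Slc16a1 did not pass (limma adjusted p = 0.0758). The other 9 passed, but without WT_MIG replicate 3 the calls of Klhl5, Daglb, Exoc3l, Timp2, Frmd4b and Cd80 were lost. Without WT_MIG replicate 2 those of Daglb, Exoc3l, Timp2 and Cd80 were lost, and Daglb also lost its call without KO_starmut replicate 3. Over its 12 alternatives the difference of Exoc3l lay between 0.45 and 0.50.

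The labels and the cell type were set against the arrays. The probe set listed as F630028O10Rik and Mir223 read between -0.08 and 0.15 in the knockout arrays, against -0.98 and -1.07 in WT_MIG. It was thus higher in the knockout, and as the files do not say whether its probes fall inside the deletion, it does not check the genotype. Of 54 marker genes of marrow cell types, fibroblasts and sex, 10 were named in the list. The list keeps only probe sets that passed an analysis of variance on these arrays, so the named markers were filtered for group differences. Of the 10, 1 was called higher and 2 lower in the knockout, beside 0.308% and 0.607% of all probe sets, which were not filtered this way. The myeloid markers Itgam and Cd68, 2 of 16, were both lower in the knockout. Itgam, an integrin of mature myeloid cells, gave -0.81 ± 0.09 (limma adjusted p = 0.0097). Its knockout arrays lay between -0.59 and 0.03, against 0.71 and 0.48 in WT_MIG. The low end was KO_223mut, at -0.51 and -0.59, while KO_MIG read -0.03 and 0.03 and KO_starmut 0.03 and -0.20. The Itgam call was lost without WT_MIG replicate 2, and its difference ran from -0.92 to -0.70 over the alternatives. Cd68, a lysosomal protein of macrophages, gave -0.36 ± 0.05 (adjusted p = 0.0324), with the call lost without any 1 of the 8 arrays. Cd200r3, of mast cells and basophils, was higher by 0.53 ± 0.08 (adjusted p = 0.0249) with values of 0.57 and 0.64 in KO_starmut and between -0.06 and 0.10 in the other knockout arrays, against -0.43 and -0.22 in WT_MIG, and 7 of 12 alternatives took its call away. The other 7 did not pass: the progenitor genes Ly6a, Lmo2 and Flt3, the fibroblast genes Dcn and Mmp2, the B-lineage gene Igll1 and the Y-linked Eif2s3y. The Ly6a difference, 0.07 ± 0.12 (SE), is a mean over unlike arms. Ly6a read -0.85 and -0.43 in KO_MIG, 0.04 and -0.16 in KO_223mut and 1.15 and 1.14 in KO_starmut, against -0.04 and 0.19 in WT_MIG. The part of these markers in the values of the 9 genes was not tested, and since the values hold no level, no marker can be called absent.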

How the data were processed

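RNA of 8 samples was measured on Affymetrix Mouse Gene 1.0 ST arrays. Per the file headers, signals were summarised by RMA16 with annotation na31 on mm9, and the authors deposited log2 values in which every probe set has a median of 0 (checked: largest absolute median 7e-07). The authors also deposited a list of 1264 probe sets with an uncorrected p-value from a Welch analysis of variance, restricted to raw signals from percentile 20 up to 100, and log2 fold changes (recomputed within 4.6e-07). Genes are named only from that list (1081 probe sets with a single symbol). Of its 1049 symbols, 1012 were found in a RefSeq table of GRCm38.p6, which was used for current names and gene order. RefSeq windows were found for 7 of the 9 genes.

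The model was fitted to all 28853 probe sets in R 4.3.3 using limma 3.58.1, with 4 groups as terms, no block, 4 residual and 3.67 prior degrees of freedom, Benjamini-Hochberg adjustment and a threshold of 0.05. In this fit 9 blank cells, none in the 9 genes, were left missing. The script was tested on simulated data. Named genes are the 9, listed genes within 10 gene positions, the 5 most similar profiles in each direction, listed family relatives, listed marker genes, and the probe set of Mir223. The genes and lists were chosen with earlier results of these data known. Alternatives were the replicate number as a block, array centring, averaged probe sets, robust eBayes, only the groups compared and leaving out each array. A further marker gene was left out of the lists and is not reported here.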

Additional observations from a re-analysis of the deposited data

How the results depend on the processing

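In the comparisons of all knockout arms and of KO_MIG with WT_MIG, the 12 probe sets kept their sign in every setting run, and 253 of 300 recomputed differences kept their side of the threshold. The calls of all knockout arms against WT_MIG, 264 over all probe sets, numbered 822 with the replicate number as a block (the 12 all among them) and 47 to 226 without 1 array: 157 without KO_MIG replicate 3, 115 without WT_MIG replicate 2 and 47 without WT_MIG replicate 3. The 39 calls of KO_MIG against WT_MIG became 277 with the block, 5 with only the groups compared, where 5 of the 12 passed, and 4 to 22 without 1 array, where 4 to 11 of the 12 passed. KO_starmut against KO_223mut gave 0 calls and 1 with the block. The block also added calls of 4931406H21Rik (lowest adjusted p 0.0268 over its alternatives) and Slc16a1 (0.0299). Nothing in the labels ties arrays of the same replicate number together, while deviations of same-numbered arrays correlated at 0.36 to 0.533 over 6 pairs of groups. Uncalled differences changed sign without 1 array, and ranged from -0.0193 to 0.195 for Chit1, from -0.0384 to 0.00761 for Dusp13, from -0.0463 to 0.184 for Ly6a and from -0.115 to 0.0227 for Mmp2. For all knockout arms against WT_MIG the setting with only the groups compared is the full fit.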

Other observations

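Among the 15 probe sets with the widest gap between genotypes relative to the range over the knockout arrays, 6 belong to the 9 genes and 6 have no name in the deposited list. The widest unnamed one is 10439321, at 6.39 times the range, followed by 10435712 at 5.63 times. The other 3 are Klhl5 at 4.43 times, Slc29a1 at 4.25 times and the probe set listed as F630028O10Rik and Mir223. The authors' deposited table gave BC018473 an analysis of variance p-value of 0.000221, the third lowest of its 1264 probe sets, but 1700112E06Rik one of 0.02, while its absolute difference from WT_MIG was the fifth largest on the array.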
